A study of Mus musculus with 44 samples.

Results

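A set of 9 genes whose products sit on the surface of homeostatic microglia or are secreted by them were followed through 44 RNA-seq libraries of mouse brain. The 9 genes were given as a list of symbols, namely Tmem119, Siglech, Gpr34, Selplg, Slc2a5 and Cd33 for the cell surface and Olfml3, Sparc and Cst3 for secretion. All 9 were found among the 50714 gene identifiers that every count file shares, and all 9 passed the filter on low counts in every fit. Microglia are the resident macrophages of the brain, and in the healthy tissue they carry a set of receptors and secreted proteins through which they sense and survey their surroundings. Several of these genes are used to tell microglia from other brain macrophages, and many of them lose expression when microglia become activated. Sparc and Cst3 are also made by astrocytes, and Sparc by vessel cells, whereas Siglech is also a marker of plasmacytoid dendritic cells.

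The mice all carried 1 copy of CX3CR1-CreERT2, a Cre recombinase under the control of the Cx3cr1 promoter that acts after tamoxifen, and 1 copy of a floxed RPL10a-GFP allele, a ribosomal protein fused to GFP. The series design text gives the second allele as fl/fl instead. Cx3cr1 is expressed in microglia and in other mononuclear phagocytes, so tagged ribosomes are not limited by the promoter to parenchymal microglia. Tamoxifen mice received 100 mg/kg in sunflower oil and ethanol on postnatal days 15, 17 and 19. Control mice received vehicle on those days per the sample labels, whereas the series design text calls them untreated. Dorsal cortex and hippocampus were taken on postnatal days 28 to 29. TRAP, translating ribosome affinity purification, uses the GFP to isolate the tagged ribosomes and the transcripts they hold. Input is the RNA of the homogenate, and MG_TRAP is its GFP immunoprecipitate. SN_input is RNA from synaptosomes, nerve endings that seal off during homogenization together with adhering processes, and PeMP_TRAP is the immunoprecipitate from that fraction, meant to capture peripheral microglial processes. Each fraction had 8 tamoxifen libraries, with letters D to K, and 3 control libraries, with letters A to C. Letters A to F form a first set and G to K a second set, whose titles write SN_TRAP for PeMP_TRAP, and control libraries occurred in the first set alone. The labels do not say that a letter is 1 animal, so the p-values measure the spread between these libraries.

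Assigned reads ranged from 746616 to 35584637 per library, and a count of 0 still allowed 3 reads, equal to 0.0793 to 4.90 CPM (at most 0.776 in Input, 1.52 in MG_TRAP, 1.69 in SN_input and 4.90 in PeMP_TRAP). CPM are counts scaled to a common library total after TMM, a correction for composition, whereas shares of reads are of the unscaled total. The number of genes detected was uneven, with 5372 to 7369 in the PeMP_TRAP libraries of the second set against 20949 to 22449 in their Input. A list of 30 other microglial genes served as a reference for the labels: it summed to 371 to 528 CPM in tamoxifen Input and to 22116 to 77657 CPM in tamoxifen MG_TRAP. Neuronal markers (10 genes) summed to 9983 to 14841 CPM in tamoxifen Input and to 1592 to 5606 CPM in tamoxifen MG_TRAP. Libraries were scaled with TMM, and a difference was called when its adjusted p-value in edgeR's quasi-likelihood test was under 0.05 over all genes tested. In whole-tissue RNA, fewer cells of a type and less RNA per cell cannot be told apart.

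The 9 genes lie on 7 chromosomes of the GRCm38 build, as protein-coding genes of GENCODE M21. Tmem119 (ENSMUSG00000054675), a membrane protein widely used as a microglial marker, is at chr5:113793729-113800516. Selplg (ENSMUSG00000048163), which encodes the P-selectin ligand PSGL-1, is at chr5:113818536-113832644 on the same minus strand, 18019 bases away with 1 annotated gene (Gm19931) between them. Siglech (ENSMUSG00000051504), a sialic acid-binding lectin that signals through the adaptor Tyrobp, is at chr7:55768178-55778925. Cd33 (ENSMUSG00000004609), a lectin of the same family, is on the minus strand at chr7:43524216-43544428. Gpr34 (ENSMUSG00000040229), a receptor for lysophosphatidylserine, is at chrX:13632089-13640858, inside Cask on the opposite strand. No exon bases of Gpr34 overlap exons of Cask, and whether reads were counted by strand is not given in the sources used here. Slc2a5 (ENSMUSG00000028976), the fructose transporter GLUT5, is at chr4:150119283-150144169. Olfml3 (ENSMUSG00000027848), a secreted glycoprotein with an olfactomedin domain, is at chr3:103722222-103738001 on the minus strand. Sparc (ENSMUSG00000018593), a secreted collagen-binding matricellular protein, is at chr11:55394500-55423183 on the minus strand. Cst3 (ENSMUSG00000027447), which encodes cystatin C, a secreted inhibitor of cysteine proteases such as the cathepsins, is at chr2:148871722-148875692 on the minus strand.

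RefSeq promoter sequences (GRCm38.p6, the 250 bases before the transcript start) matched 6 of the 9 genes, namely Siglech, Olfml3, Sparc, Slc2a5, Cd33 and Cst3. They were searched on both strands for GAGGAA, the core of the box bound by PU.1, the transcription factor that defines the macrophage lineage. Of the 6 promoters 2 held it, against 23.3% of the 32851 promoters in the table. The matches in Cst3 and Cd33, in capitals below, started 230 and 226 bases before the transcript. Sparc is printed beside them because its profile over the libraries was the nearest to that of Cst3, and its window held no match. The regions are chr2:148875513-148875762, chr7:43533172-43533421 and chr11:55420081-55420330, each read on the minus strand.
Cst3: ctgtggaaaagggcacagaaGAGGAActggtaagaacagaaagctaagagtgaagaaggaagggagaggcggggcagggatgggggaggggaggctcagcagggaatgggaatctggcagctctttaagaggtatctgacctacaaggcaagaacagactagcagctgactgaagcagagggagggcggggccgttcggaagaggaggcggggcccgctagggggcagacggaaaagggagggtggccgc
Cd33: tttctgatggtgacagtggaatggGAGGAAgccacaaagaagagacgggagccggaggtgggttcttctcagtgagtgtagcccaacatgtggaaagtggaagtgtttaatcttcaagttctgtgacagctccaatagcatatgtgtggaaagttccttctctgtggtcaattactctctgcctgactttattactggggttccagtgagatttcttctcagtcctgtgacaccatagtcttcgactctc
Sparc: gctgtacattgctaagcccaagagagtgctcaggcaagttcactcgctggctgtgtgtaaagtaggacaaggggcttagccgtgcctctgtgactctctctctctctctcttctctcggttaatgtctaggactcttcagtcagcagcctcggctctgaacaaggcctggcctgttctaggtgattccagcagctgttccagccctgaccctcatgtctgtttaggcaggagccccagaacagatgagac

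In the homogenate of tamoxifen mice, all 9 genes were higher in the MG_TRAP immunoprecipitate than in Input, by 23.6-fold (Cst3) to 110-fold (Tmem119). Over all 15710 genes tested, 4.67% were called higher. The groups of 8 libraries did not overlap for any of the 9 genes, which was so with MG_TRAP higher for 5.46% of all genes. The median log2 fold change was 6.22 over the 9 genes and -0.14 over all genes.

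Among the surface genes, Tmem119 ranged from 2.59 through a median of 8.50 to 23.1 CPM in Input and from 667 through 918 to 2661 CPM in MG_TRAP. Its log2 fold change was 6.78 ± 0.61 (SE, adjusted p = 3.53e-11). Selplg went from 8.79, 14.02 and 18.3 CPM (lowest, median and highest) in Input to 910, 1291 and 3106 CPM in MG_TRAP, a log2 fold change of 6.73 ± 0.54. The highest Input library of either gene was far below the lowest MG_TRAP library. Siglech had a median of 7.86 CPM in Input (3.11 to 11.7) and 587 CPM in MG_TRAP (377 to 1803), with a log2 fold change of 6.56 ± 0.49. Gpr34 had a median of 5.47 CPM in Input (1.55 to 9.73) and 365 CPM in MG_TRAP (152 to 1416), with a log2 fold change of 6.22 ± 0.63. These 4 receptors and membrane proteins stood within 1 SE of one another. Slc2a5, at a median of 2.38 CPM in Input and 137 CPM in MG_TRAP, had a log2 fold change of 5.67 ± 0.83. Cd33, the least abundant of the 9, had medians of 1.89 and 84.5 CPM and a log2 fold change of 5.51 ± 1.06 (adjusted p = 0.000412). Of the 30 reference genes, 20 had a lower fold change than Tmem119 and 3 a lower one than Cd33.

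Among the secreted genes, Olfml3 behaved like the surface genes, with medians of 7.77 CPM in Input (1.81 to 12.5) and 582 CPM in MG_TRAP (366 to 912) and a log2 fold change of 6.39 ± 0.58. Sparc and Cst3 were well detected in Input already. Sparc had a median of 224 CPM there (133 to 313) and 5633 CPM in MG_TRAP (3350 to 11131), with a log2 fold change of 4.72 ± 0.30 (adjusted p = 1.97e-15). Cst3 had a median of 982 CPM in Input (584 to 1319) and 19954 CPM in MG_TRAP (12706 to 53820), with a log2 fold change of 4.56 ± 0.32 (adjusted p = 1.9e-14). Of the 30 reference genes 2, Mertk and Sall1, had a lower fold change than either. A list of 10 astrocyte markers, none of them at 0 in any Input library, summed to 1468 to 2585 CPM in tamoxifen Input and to 344 to 1483 CPM in MG_TRAP, and its part in the lower fold changes of Sparc and Cst3 was not tested.

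Markers of other cells that share some of these genes were read in the same comparison of MG_TRAP with Input. Over all 15710 genes tested there, 733 were called higher and 338 lower. Of 9 measured markers of border macrophages, which also express Cx3cr1, 3 were higher and none lower, with Cbr2 first (5.82). Of 8 measured markers of dendritic cells, the other source of Siglech, none was called, and the 12 listed genes summed to 732 to 1359 CPM in tamoxifen Input and to 424 to 793 CPM in tamoxifen MG_TRAP, with 4 to 8 of them at 0. Genes of this list that other brain cells may also express count in its sums, here and below. The sums therefore do not measure dendritic cells. Markers of blood leukocytes had 1 gene higher and 3 lower of 7, and the lists of neurons (3 of 10), oligodendrocytes (2 of 10), choroid plexus (2 of 8), endothelium (1 of 9), mural cells and fibroblasts (1 of 10) and astrocytes (1 of 10) had genes lower and none higher. The part of these cells in the levels of the 9 genes was not tested.

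**Figure D1:**
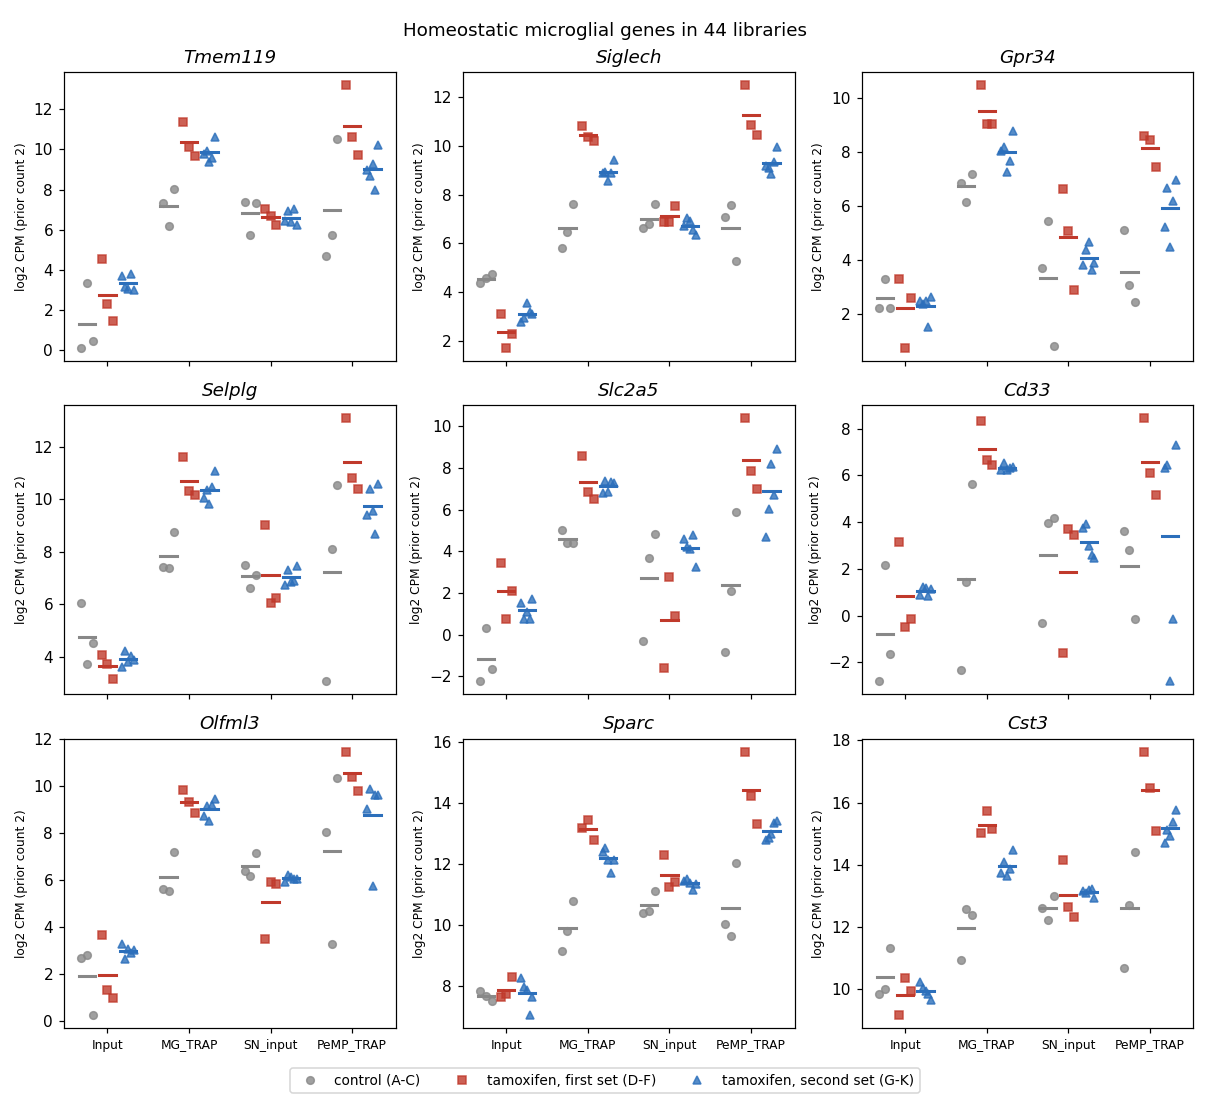
Level of each of the 9 genes in log2 CPM (prior count 2) in every library, by fraction, with 1 point per library and a short line at the group mean. In tamoxifen mice every MG_TRAP point lies above every Input point for all 9 genes, and Sparc and Cst3 start from the highest Input levels.

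Levels between genes were compared as CPM per kilobase of annotated exon. In MG_TRAP of tamoxifen mice the medians ran from Cst3 (15762) and Sparc (1487) through Tmem119 (396), Selplg (302), Gpr34 (174), Siglech (173), Olfml3 (94.4) and Slc2a5 (40.2) to Cd33 (10.9). The libraries of Cst3 (10036 to 42512) and of Sparc (884 to 2938) overlapped with no other gene of the 9 but for Tmem119, whose highest library reached 1150. From Tmem119 down to Cd33 the libraries of each gene overlapped with those of the next in that order. With the median length of the coding transcripts in place of all exons, Tmem119 and Selplg changed places, Slc2a5 and Cd33 changed places, and Gpr34 moved to the seventh place. In PeMP_TRAP, Gpr34 (54.1) stood below Olfml3 (136) with either length, and the order began again with Cst3 (30695) and Sparc (2715).

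As a share of all reads assigned to the shared genes, the 9 genes made up 0.141% to 0.356% of Input, over control and tamoxifen libraries. In tamoxifen mice MG_TRAP had a share of 2.86% to 6.66%, SN_input of 0.310% to 1.75% and PeMP_TRAP of 3.08% to 10.0%. Cst3 alone made up most of it, with 1.84% to 5.12% of MG_TRAP and 2.27% to 7.16% of PeMP_TRAP. The highest of these, library D of PeMP_TRAP, had 7.16% of its reads on Cst3, with a 95% Wilson interval of 7.15% to 7.18%, which covers counting error only because reads amplified without molecular identifiers are not independent molecules.

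**Figure D2:**
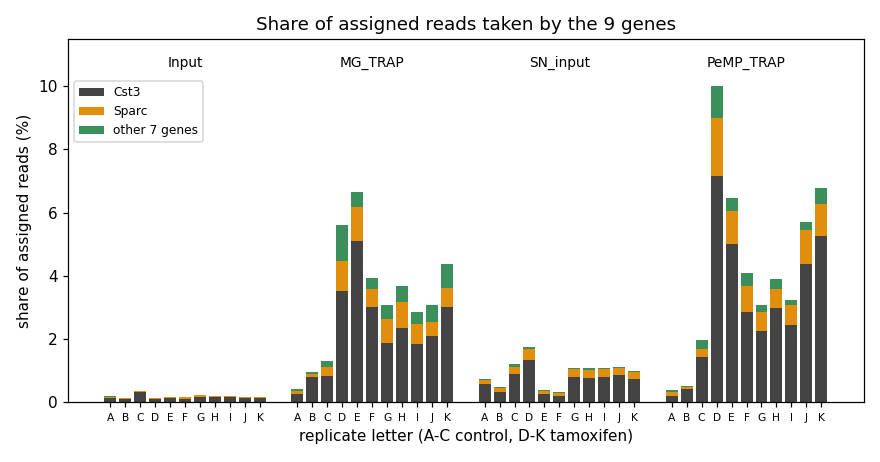
Share of assigned reads (%) taken by Cst3, Sparc and the other 7 genes together, with 1 bar per library, ordered by replicate letter within each fraction. Cst3 fills most of each MG_TRAP and PeMP_TRAP bar of the tamoxifen letters D to K, and the bars reach 10.0% in PeMP_TRAP of letter D.

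The synaptosome fraction asks whether the same transcripts are bound to tagged ribosomes away from the cell bodies. All 9 genes were higher in PeMP_TRAP than in SN_input of tamoxifen mice, by 4.80-fold (Sparc) to 21.4-fold (Slc2a5), where 6.15% of all genes were called higher and 26.1% lower. The median log2 fold change was 3.39 over the 9 genes and -0.75 over all genes. The groups did not overlap for Tmem119, Siglech, Sparc and Cst3, which is 4 of the 9 genes against 0.56% of all genes. Of the blood leukocyte markers, Cd79b (3.85) was higher and Cd79a, Ngp, S100a9 and S100a8 were lower. The border macrophage markers F13a1 (-6.97), Cd163 (-7.89) and Clec10a (-8.89) were lower and the others not called. Choroid plexus markers were lower but for Folr1, which was not called. Dendritic cells follow below, and the remaining lists are not given here. The part of any of these cells was not tested.

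Of the surface genes, Siglech ranged from 80.9 through 117 to 186 CPM in SN_input and from 458 through 818 to 5781 CPM in PeMP_TRAP, a log2 fold change of 3.39 ± 0.43 (adjusted p = 6.76e-07). Tmem119 ranged from 74.6 through 94.1 to 131 CPM and from 248 through 728 to 9385 CPM, a log2 fold change of 3.80 ± 0.54. In both genes library D of PeMP_TRAP was the highest by a wide margin in CPM, and its TMM factor (0.354) was the lowest of all libraries. As a share of reads, Siglech was at 0.204% in D and at most 0.115% in the other letters. Tmem119 was at 0.332% and at most 0.114%. Of the 8 measured markers of dendritic cells, which also express Siglech, Ly6d (5.41) and Itgax (5.19) were higher in PeMP_TRAP and Pacsin1 (-1.59) and Flt3 (-7.19) lower. The 12 listed genes summed to 474 to 1277 CPM in SN_input and to 216 to 712 CPM in PeMP_TRAP, with 7 to 9 of them at 0 there, and their part in the value of Siglech was not tested. Selplg had a log2 fold change of 3.46 ± 0.46 and overlapped through letters D of SN_input (515 CPM) and J of PeMP_TRAP (410 CPM). Slc2a5 had a log2 fold change of 4.42 ± 0.81, from a median of 13.2 CPM (0.190 to 27.1) to 177 CPM (25.6 to 1338). Gpr34 had the smallest of the surface genes, 2.34 ± 0.53 (adjusted p = 0.000983), from a median of 17.6 CPM (7.32 to 98.8) to 113 CPM (22.5 to 381). Cd33 was the most uneven gene: 6 PeMP_TRAP libraries held 35.9 to 346 CPM, library J 0.756 CPM and library I no read, which allows up to 0.1102 CPM, and its log2 fold change was 3.27 ± 0.96 (adjusted p = 0.0081). With the 3 tamoxifen letters of the first set alone, Cd33, Gpr34 and Sparc were not called (adjusted p = 0.0977, 0.119 and 0.0547), at log2 fold changes of 4.22, 2.71 and 3.01.

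Of the secreted genes, Cst3 ranged from 5125 through 8887 to 18269 CPM in SN_input and from 26530 through 38860 to 202740 CPM in PeMP_TRAP, a log2 fold change of 2.63 ± 0.29 (adjusted p = 4.22e-08). Sparc ranged from 2255 through 2680 to 4965 CPM and from 7083 through 10283 to 52163 CPM, a log2 fold change of 2.26 ± 0.27 (adjusted p = 2.34e-07). These abundant transcripts were separated between the fractions in all libraries. Olfml3 had a log2 fold change of 4.06 ± 0.53, with medians of 63.4 and 838 CPM, and its PeMP_TRAP library of letter I, at 54.5 CPM, lay within the range of SN_input. The authors' deposited table, made from the first set, gives log2 fold changes of 5.06 to 7.86 for MG_TRAP against Input and of 3.23 to 6.34 for PeMP_TRAP against SN_input, with an FDR under 0.05 for 9 of 9 genes in each.

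The synaptosome fraction itself held more of these transcripts than the homogenate. In tamoxifen mice 7 of the 9 genes were higher in SN_input than in Input, where 2.08% of all genes were. Siglech had the largest difference (log2 fold change 3.91 ± 0.43, adjusted p = 2.79e-08), followed by Sparc (3.67 ± 0.28), Selplg (3.49 ± 0.46), Tmem119 (3.34 ± 0.52), Cst3 (3.26 ± 0.30), Olfml3 (3.11 ± 0.50) and Gpr34 (2.21 ± 0.53, adjusted p = 0.012). Tmem119, Siglech, Sparc, Selplg and Cst3 had no overlap between the groups, which was so with SN_input higher for 2.66% of all genes. Slc2a5 (2.21 ± 0.75, adjusted p = 0.124) and Cd33 (2.02 ± 0.91, adjusted p = 0.357) were not called. Slc2a5 stood at 0.190, 6.69 and 1.69 CPM in SN_input of letters D to F and at 9.23 to 27.1 CPM in those of the second set, and its log2 fold change was -0.90 in the first set and 3.10 (adjusted p = 0.00441) in the second. Without letter D, Slc2a5 was called at 2.58 (adjusted p = 0.0112). Gpr34 was not called without letter E (2.0, adjusted p = 0.0551), and in the first set alone only Siglech was called. With limma voom 1 of the 9 genes was called. The authors' deposited table has a comparison of SN_input with Input whose name gives no treatment, so its samples may differ from those used here. Its log2 fold changes run from 3.46 to 7.83, with 6 of the 9 genes past an FDR of 0.05, all but Gpr34, Slc2a5 and Cd33. Of the 30 reference genes 26 were higher, with a median of 3.68. The astrocyte markers summed to 8403 to 13815 CPM in SN_input, against 1468 to 2585 CPM in Input, with 3 of 10 genes higher and none lower, and their part in the values of Sparc and Cst3 was not tested. Of 9 measured border macrophage markers, Mrc1 was higher (4.90 ± 1.40, adjusted p = 0.0481) and the other 8, at 0.11 to 3.02, were not called. That list summed to 1.46 to 18.1 CPM in Input and to 31.6 to 55.5 CPM in SN_input. Oligodendrocytes had 3 of 10 markers higher and mural cells and fibroblasts 1 of 10, and the lists of neurons, endothelium, choroid plexus, dendritic cells and blood leukocytes had none called. The part of these cells in the values of the 9 genes was not tested.

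The enrichment by immunoprecipitation was smaller in the synaptosome fraction than in the homogenate. The difference of the 2 enrichments was negative for all 9 genes and called for 7, against 10.9% of all genes called lower. It was largest for Gpr34 (-3.88 ± 0.74 on the log2 scale, adjusted p = 0.00119) and smallest among the called genes for Cst3 (-1.94 ± 0.39, adjusted p = 0.00162). Slc2a5 (-1.25 ± 1.03) and Cd33 (-2.24 ± 1.26) were not called. The reference list had 26 of 30 genes lower at a median of -3.16, beside -2.45 for the 9 genes and -0.79 for all genes. With the first set alone none of the 9 genes was called, and 3 had an unadjusted p under 0.05. With limma voom 2 were called.

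**Figure D3:**
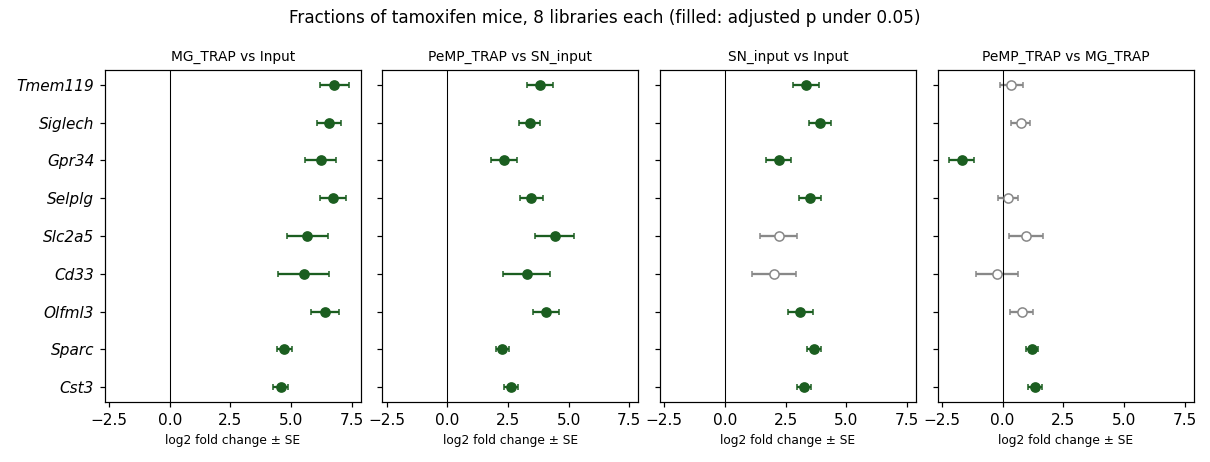
Log2 fold change with its SE (bars) for each of the 9 genes in 4 comparisons of fractions of tamoxifen mice, 8 libraries a group, with filled points for adjusted p under 0.05. All 9 genes are filled to the right of 0 in the first 2 panels, and in PeMP_TRAP against MG_TRAP Sparc and Cst3 are filled on the right and Gpr34 on the left.

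Set against each other, the immunoprecipitates held most of the 9 genes at levels that the test did not separate, with 3 exceptions. Sparc and Cst3 were higher in PeMP_TRAP than in MG_TRAP and Gpr34 was lower, where 3.17% of all genes were called higher and 22% lower. The median log2 fold change was 0.75 over the 9 genes and -0.57 over all genes. For none of the 9 did the groups of 8 libraries separate completely, which happened for 0.0955% of all genes with PeMP_TRAP higher and for 1.77% with it lower.

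Cst3 was at 33220, 53820 and 36113 CPM in MG_TRAP of letters D, E and F and at 202740, 91208 and 34485 CPM in PeMP_TRAP. In the second set it ranged from 12706 to 22623 CPM in MG_TRAP and from 26530 to 55056 CPM in PeMP_TRAP. The groups overlapped in the first set and not in the second, and Cst3 had a log2 fold change of 1.33 ± 0.28 (adjusted p = 0.000718). Sparc was at 9193, 11131 and 6977 CPM in MG_TRAP of letters D, E and F and at 52163, 19119 and 10182 CPM in PeMP_TRAP. In the second set it ranged from 3350 to 5887 CPM and from 7083 to 10739 CPM. Its log2 fold change was 1.22 ± 0.26 (adjusted p = 0.000969), and again the overlap lay in the first set. Letter by letter, Sparc and Siglech were higher in PeMP_TRAP in 8 of 8 letters and Cst3 and Olfml3 in 7. Slc2a5 was higher in 5, Selplg in 4, Tmem119 and Cd33 in 3 and Gpr34 in 0. The letters are not shown to be pairs, so this tally is a description only. The share of all genes whose groups are apart within a set is not given here.

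These 2 calls depended on scaling and on the set. With total counts in place of TMM the log2 fold change was 0.39 for Sparc (adjusted p = 0.271) and 0.51 for Cst3 (adjusted p = 0.153), and with DESeq2 it was 0.63 and 0.76 (adjusted p = 0.121 and 0.079). The median of all genes moved from -0.57 with TMM to -1.30 with total counts. In the first set alone neither was called (Sparc 1.59, adjusted p = 0.482, and Cst3 1.42, adjusted p = 0.53). In the second set alone both were, at 0.69 ± 0.18 for Sparc (adjusted p = 0.00365) and 1.03 ± 0.15 for Cst3 (adjusted p = 1.36e-05). With libraries scaled to the 30 reference genes, Sparc was higher by 1.52 ± 0.32 (adjusted p = 0.000633) and Cst3 by 1.67 ± 0.28 (adjusted p = 6.74e-05). Under that scaling 6.36% of all genes were called higher. In that fit the 30 reference genes themselves had a median of 0.69, and the fold change of Cst3 was above those of 28 of them and that of Sparc above 27. With TMM these counts were 29 and 28. The astrocyte markers summed to 344 to 1483 CPM in MG_TRAP and to 645 to 5628 CPM in PeMP_TRAP, with 1 of 10 genes higher (Slc1a2, a glutamate transporter, by 2.19) and 1 lower (Sox9, a transcription factor, at -2.84). Between 1 and 7 of the 10 were at 0 in the PeMP_TRAP libraries of the second set. Of 8 choroid plexus markers, Ttr (3.13 ± 0.60, adjusted p = 0.000376), which encodes transthyretin, and Folr1 (5.45 ± 1.84, adjusted p = 0.0247) were higher and 4 lower. That list summed to 10.1 to 106 CPM in MG_TRAP and to 11.9 to 1191 CPM in PeMP_TRAP, with 6 or 7 genes at 0 in each PeMP_TRAP library. Of 10 mural and fibroblast markers, Rgs5 (3.80) and Col1a1 (2.78) were higher and 2 lower, with sums of 0.571 to 127 CPM and of 11.4 to 388 CPM. Neurons and oligodendrocytes had 1 marker higher each, Nrgn (1.10) and Cldn11 (1.78), with 3 and 1 lower. Markers of endothelium, border macrophages and blood leukocytes had none higher and 1, 3 and 2 lower. The part of these cells in the levels of Sparc and Cst3 was not tested.

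Gpr34 differed in the other direction. In letters D, E and F it was at 1416, 518 and 526 CPM in MG_TRAP and at 381, 344 and 175 CPM in PeMP_TRAP. In the second set it ranged from 152 to 437 CPM in MG_TRAP and from 22.5 to 125 CPM in PeMP_TRAP. Within each set the groups did not overlap, and the share of all genes for which that holds within a set is not given here. Gpr34 was lower in PeMP_TRAP in 8 of 8 letters, which are not shown to be pairs. Its log2 fold change was -1.68 ± 0.52 (adjusted p = 0.0138), and in the second set alone -2.11 ± 0.49 (adjusted p = 0.00164). It was not called in the first set alone (-1.39, adjusted p = 0.571) nor when libraries were scaled to the reference genes (-1.18 ± 0.68, adjusted p = 0.2). Control libraries, read without a test, stood at 115, 71.1 and 147 CPM in MG_TRAP and at 34.5, 8.33 and 5.32 CPM in PeMP_TRAP. Of the 30 reference genes, P2ry12, a purinergic receptor that like Gpr34 couples to G proteins, was the 1 gene called lower (-2.16 ± 0.46, adjusted p = 0.000862). The complement subunits C1qa (1.42), C1qb (1.29) and C1qc (1.05) and the lysosomal membrane protein Laptm5 (1.11) were the 4 called higher.

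The other 6 genes were not called between the immunoprecipitates. Their log2 fold changes were 0.96 ± 0.69 for Slc2a5, 0.78 ± 0.47 for Olfml3, 0.75 ± 0.39 for Siglech, 0.36 ± 0.49 for Tmem119, 0.22 ± 0.43 for Selplg and -0.23 ± 0.87 for Cd33. Of the 8 measured dendritic cell markers, Ly6d was higher (5.75 ± 1.99, adjusted p = 0.0289) and Flt3 lower (-8.41 ± 2.05), the list summed to 424 to 793 CPM in MG_TRAP and to 216 to 712 CPM in PeMP_TRAP, and its part in the value of Siglech was not tested.

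The enrichments were then compared between the sets. The enrichment of PeMP_TRAP over SN_input was smaller in the second set for Tmem119 (difference of log2 fold changes -2.68 ± 0.89, adjusted p = 0.0372) and for Slc2a5 (-4.27 ± 1.35, adjusted p = 0.026), which is 2 of the 9 genes, while 14.9% of all genes were called lower in this comparison. Slc2a5 had a mean log2 CPM of 0.69 in SN_input of the first set and 4.18 in that of the second, beside 8.40 and 6.91 in PeMP_TRAP. With RLE size factors the differences were -1.81 and -3.33 and neither was called (adjusted p = 0.216 and 0.111), and with total counts or limma voom Slc2a5 alone was. The other 7 differences were negative too, from -0.63 for Gpr34 to -2.12 for Olfml3, and were not called. The median over all genes was -1.61, close to the median of -1.46 over the 9 genes. For MG_TRAP against Input no difference between the sets was called by edgeR for any gene (0%), with 1070 genes and 2 of the 9, Siglech (-2.18 ± 0.65) and Cst3 (-1.38 ± 0.50), at an unadjusted p under 0.05, and limma voom called none of the 9 either.

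The control mice had no tamoxifen to induce the tag. In MG_TRAP all 9 genes were lower in the 3 control libraries than in any of the 3 tamoxifen libraries of the same set, as were 15.3% of all genes. Cst3 was at 1966, 6063 and 5327 CPM in control and at 33220, 53820 and 36113 CPM in tamoxifen libraries, a log2 fold change of 3.03 ± 0.77 (adjusted p = 0.123). Siglech was at 56.4, 88.4 and 196 CPM and at 1803, 1321 and 1183 CPM, with 3.45 ± 0.87 (adjusted p = 0.123). The 9 log2 fold changes lay between 2.60 (Selplg) and 3.45 (Siglech), with adjusted p from 0.123 to 0.402. edgeR called none of the 9 and 0% of the 14771 genes tested, with 2351 genes and 7 of the 9 at an unadjusted p under 0.05. DESeq2 called 6 of the 9 and limma voom 8. The share of all genes that DESeq2 or limma voom called is not given here, so these counts have no background beside them.

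In PeMP_TRAP, 4 of the 9 genes were higher in tamoxifen than in control mice, where 5.56% of all genes were called higher and as many lower. They were Siglech (4.16 ± 0.90, adjusted p = 0.0072), Gpr34 (3.77 ± 1.16, adjusted p = 0.032), Sparc (3.43 ± 0.76, adjusted p = 0.00729) and Cst3 (3.15 ± 0.77, adjusted p = 0.0111). With only the compared groups in the fit none of the 9 was called, these 4 having adjusted p-values of 0.138, 0.414, 0.214 and 0.272 in that order. Siglech was at 136, 187 and 38.8 CPM in the control libraries A, B and C and at 5781, 1868 and 1386 CPM in tamoxifen libraries. Gpr34 was at 34.5, 8.33 and 5.32 CPM and at 381, 344 and 175 CPM, and its call was lost when letter B, C, E or F was left out (adjusted p = 0.0608, 0.0739, 0.0861 and 0.0724). Cst3 was at 1632, 6743 and 21904 CPM and at 202740, 91208 and 34485 CPM. Control library C was the highest of the 3 for Cst3 and Sparc, and also for Tmem119, Selplg, Slc2a5 and Olfml3.

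Tmem119 was at 25.4, 52.8 and 1468 CPM in PeMP_TRAP of the control libraries A, B and C and at 9385, 1544 and 833 CPM in tamoxifen libraries, so that the groups overlapped through library C (2.59 ± 1.11, adjusted p = 0.107). Slc2a5 was at 0.410, 4.16 and 59.3 CPM and at 1338, 228 and 126 CPM (4.37 ± 1.5, adjusted p = 0.0507). Library C was again the highest control. Without that 1 library, 6 of the 9 genes were called, a count given without the share of all genes called in that refit. Tmem119 was then at 6.08 (adjusted p = 0.0102), Slc2a5 at 7.62 (adjusted p = 0.0198), Sparc at 4.36 (adjusted p = 0.0086) and Cst3 at 4.25 (adjusted p = 0.00878), while Gpr34 was no longer called (3.30, adjusted p = 0.0917). For Slc2a5 the control libraries left, A and B, held 3 reads or fewer (3 reads equal 1.23 and 4.16 CPM there). The size of its difference is therefore not well measured. Selplg (2.39, adjusted p = 0.11), Cd33 (3.91, adjusted p = 0.145) and Olfml3 (1.41, adjusted p = 0.345) were not called by edgeR with all libraries, while DESeq2, limma voom and edgeR without a filter on low counts each called 7 of the 9 genes. The shares of all genes called under these alternatives are not given here. For 6 of the 9 genes the groups did not overlap, against 12.2% of all genes with tamoxifen higher. Endothelial markers (10 genes) summed to 836 to 2170 CPM in the control PeMP_TRAP libraries and to 33.7 to 1345 CPM in the tamoxifen ones of the same set. Mural and fibroblast markers (10 genes) summed to 1281 to 3971 CPM and to 11.4 to 383 CPM, and the part of these cells in the control levels of Sparc was not tested.

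**Figure D4:**
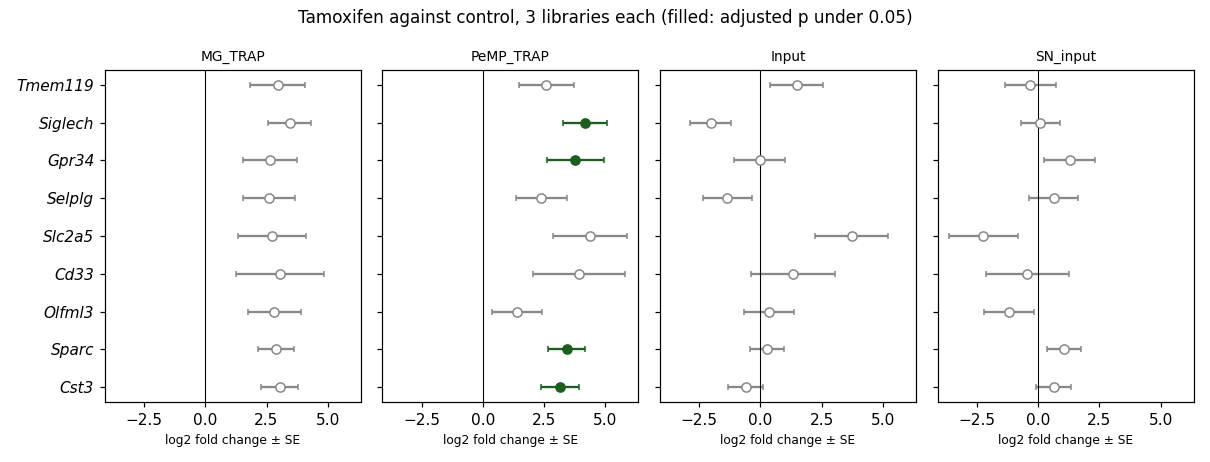
Log2 fold change with its SE (bars) of tamoxifen against control mice for each of the 9 genes in the 4 fractions, 3 libraries a group, with filled points for adjusted p under 0.05. The MG_TRAP points lie between 2.60 and 3.45 with none filled, 4 PeMP_TRAP points are filled, and the points of Input and SN_input scatter on both sides of 0.

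Before immunoprecipitation, treatment made no called difference. edgeR called 0% of genes in Input and 0% in SN_input, with 452 and 495 genes at an unadjusted p under 0.05, and neither DESeq2 nor limma voom called any of the 9 genes there. The log2 fold changes of Cst3 were -0.59 ± 0.71 in Input and 0.63 ± 0.71 in SN_input, and those of Sparc 0.28 ± 0.69 and 1.04 ± 0.70. For Siglech, Input held 20.2, 23.4 and 26.5 CPM in control mice and 8.31, 3.11 and 4.65 CPM in tamoxifen mice of the same set, with no overlap, which was so with tamoxifen lower for 2.82% of all genes. Its log2 fold change was -2.03 ± 0.83 (unadjusted p = 0.0188, adjusted p = 1). In the second set, which has no controls, Siglech Input ranged from 6.60 to 11.7 CPM. Slc2a5 was at 0.0677, 1.12 and 0.178 CPM in control Input and at 10.8, 1.55 and 4.14 CPM in tamoxifen Input, with no overlap, as for 4.15% of all genes with tamoxifen higher, and 2 of those control libraries held 1 read each. In SN_input, Olfml3 was at 84.2, 73.5 and 144 CPM in control and at 11.2, 60.2 and 57.4 CPM in tamoxifen mice, and Sparc was at 1328, 1415 and 2191 CPM and at 4965, 2403 and 2717 CPM. Neither gene overlapped between the groups, which was so with tamoxifen lower for 6.63% and higher for 3.57% of all genes. In each of these fractions the groups overlapped for the other 7 genes.

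Within control mice, some enrichment was measured as well. MG_TRAP exceeded Input by log2 fold changes of 1.65 (Cst3) to 5.90 (Slc2a5), with no overlap for 7 of the 9 genes against 5.84% of all genes. None of the 9 was called by edgeR, which called 0.0135% of all genes, with 1101 genes and 8 of the 9 at an unadjusted p under 0.05. DESeq2 called 5 of the 9 and limma voom 0. Counts by these tools, here and below, stand without their share of all genes. Tmem119 was at 0.948, 9.92 and 1.24 CPM in control Input and at 162, 72.6 and 257 CPM in control MG_TRAP (5.48 ± 1.28, adjusted p = 0.2). PeMP_TRAP against SN_input gave -0.48 (Cd33) to 2.42 (Olfml3) in control mice, with overlap for all 9 genes (1.44% of all genes were apart with PeMP_TRAP higher) and 2 of the 9 at an unadjusted p under 0.05. SN_input against Input gave 1.46 (Gpr34) to 4.88 (Tmem119), with 6 of the 9 at an unadjusted p under 0.05 and 4 called by DESeq2. edgeR called 0% of genes in each of the last 2 comparisons, with 2577 and 1010 genes at an unadjusted p under 0.05. The gain in enrichment from control to tamoxifen mice was not called by edgeR for any of the 9 genes in either immunoprecipitate, while DESeq2 called 2 in each. It was largest in MG_TRAP for Siglech (5.48 ± 1.20, adjusted p = 0.17) and in PeMP_TRAP for Slc2a5 (6.60 ± 2.03, adjusted p = 0.0778), where 0% and 0.914% of all genes were called higher. In MG_TRAP the gain was -1.01 ± 1.82 for Slc2a5 and positive for the other 8 genes. In PeMP_TRAP it was positive for all 9, from 1.75 (Selplg) upward.

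The profiles of the 9 genes over 12 groups of libraries (4 fractions in control mice and in each tamoxifen set) were compared by the root mean square difference of their mean log2 CPM after centring each gene. Among the 9 genes, Sparc and Cst3 were the closest pair (0.30), followed by Siglech and Selplg (0.48) and by Tmem119 and Olfml3 (0.57). Among 4414 other genes, the nearest to both Sparc (0.49) and Cst3 (0.39) was Grn, which encodes the secreted lysosomal protein progranulin, and the second nearest to Cst3 was Ctsd (0.50), the lysosomal protease cathepsin D. The nearest to Gpr34 was P2ry12 (0.54). Tmem119 was nearest to Ly86 (0.30), a secreted partner of a Toll-like receptor relative, Olfml3 to Laptm5 (0.42), Selplg to Rgs10 (0.42), a regulator of G protein signalling, and Siglech to Psmb8 (0.53), a subunit of the immunoproteasome. Cd33 was nearest to Cd68 (0.74), a lysosomal protein of macrophages, and Slc2a5 to Hpgds (0.77), a prostaglandin D synthase, and these scarce genes had the loosest matches. The second nearest were Cyth4 for Tmem119 (0.39), C1qc for Siglech (0.54), Lpcat2 for Gpr34 (0.74), Bin2 for both Olfml3 (0.52) and Selplg (0.48), Zfhx3 for Sparc (0.64), Ppp1r18 for Cd33 (0.76) and Fermt3 for Slc2a5 (0.80). The median difference to all candidate genes ran from 2.72 for Cst3 to 3.49 for Tmem119.

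Partners and relatives of the 9 genes were read from lists by function, in MG_TRAP against Input of tamoxifen mice first. In that comparison 733 of all 15710 genes tested were called higher and 338 lower. Of 9 measured partners of the siglecs, 6 were higher, namely the adaptors Tyrobp (7.0) and Hcst (6.33), the phosphatases Ptpn6 (6.63) and Inpp5d (5.39), and the lectins Cd22 (6.33) and Siglece (5.57). Of 13 cystatins and cathepsins 7 were higher and none lower, with Ctsh (7.29) and Ctss (6.91) first and Ctsb (1.92) last. Of 12 genes for hexose transport and phosphorylation, Hk3 (6.49), Hk2 (5.58) and Khk (3.67), the kinase that acts on fructose, were higher and the transporter Slc2a10 was lower (-6.43). Of 6 genes that modify or bind the selectin ligand, Gcnt1 (6.52) and B4galt1 (5.34) were higher. None of 5 genes of lysophosphatidylserine metabolism and reception was called, at a median of -0.29. Of 12 matrix partners and relatives of Sparc, its scavenger receptor Stab1 was higher (5.60) and its relative Sparcl1, an astrocyte product, was lower (-2.37). None of 7 genes related to Olfml3 was higher and Olfm1 was lower (-1.43). The list members at either end that were not called were Mag (-1.20), C1galt1 (-0.88), P2ry10b (5.48), Abhd16a (-0.46), Cst6 (-1.34), Smoc2 (-2.49), Olfml2b (1.88) and Olfml2a (-2.55). The reference list ran from Mertk (2.67, not called) to Ltc4s (7.33).

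In PeMP_TRAP against MG_TRAP the Sparc list had 4 genes higher and 3 lower of 12, where 3.17% of all genes were higher and 22% lower. The collagens Col4a1 (4.18 ± 1.54) and Col1a1 (2.78 ± 0.98), Stab1 (3.35 ± 0.66) and Sparcl1 (1.40 ± 0.46) were higher, and Col4a2 (-5.37 ± 2.03), Smoc2 (-5.54 ± 1.52) and Spock3 (-5.89 ± 1.44) were lower. The 2 chains of type IV collagen, which are transcribed from neighbouring genes, thus went opposite ways. Of the cystatins and cathepsins 1 was called, Ctsk (-8.74 ± 1.97), and of the siglec partners Ptpn11 was higher (2.08 ± 0.58) and Cd22 lower (-8.75 ± 1.96). The hexose list had none higher and Slc2a3, Slc2a6 and Slc2a12 lower, at -5.83, -4.76 and -7.24. Tpst1 (2.34), B4galt1 (-3.00), Hk3 (2.03), Cst7 (2.73), Ptdss2 (0.36), P2ry10b (-1.01), Olfm1 (0.73) and Olfm3 (-4.10), the remaining ends of the lists, were not called. In this comparison many scarce transcripts were lower, in libraries of the second set with 5372 to 7369 detected genes, and the part of that in these values was not tested.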

How the data were processed

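The authors deposited whole-number HTSeq counts per Ensembl gene for each of the 44 libraries, prepared with SMART-Seq v4 and NEBNext Ultra II per the labels' protocols. Per the submitters' processing notes, FastQC 0.11.7, Trimmomatic 0.38, Bowtie2 2.3.5, STAR 2.7.0d and HTSeq 0.9.1 were used. The genome build, annotation and strand setting are not given in the sources used here. Closing summary rows (27.0% to 93.4% of reads) were left out, as were genes not shared by both sets (0.0232% to 0.795% of assigned reads). Per the file headers, the authors' deposited table of the first set holds log2 CPM per library and, for 3 comparisons, p-values with FDR, the score of a likelihood ratio test and log2 fold changes. It was used for the quoted values alone.

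Counts were fitted with edgeR 4.0.16 in R 4.3.3 (TMM, filterByExpr with a minimum count of 10, quasi-likelihood test, Benjamini-Hochberg threshold 0.05). Fractions of tamoxifen mice were compared over 32 libraries with set as a covariate (15710 genes), control mice over the 24 libraries of the first set (14771 genes), and sets by an interaction term (17961 genes). Log2 CPM used a prior count of 2. Symbols, coordinates and lengths came from GENCODE M21. Genes named beside the 9 were the 2 nearest profiles of each, and, from lists of partners and cell type markers, the genes called and the ends of each list. The 9 genes and the lists were chosen with earlier results of these data known. Alternatives were RLE or total-count scaling, no filter, DESeq2 1.42.0, limma 3.58.1 (voom), each set alone, each letter left out, fewer groups in the fit, a replicate block and another prior count. No libraries were identical (0 pairs). The pipeline was tested on simulated data, where it called a minority of the changed genes, so a gene not called is not shown to be unchanged.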

Additional observations from a re-analysis of the deposited data

Results flagged for a closer look

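In 8 of 36 groups of 8 tamoxifen libraries, 1 library lay further from the rest than Dixon's limit allows. Chance alone passes that limit in about 1 of 20 groups drawn from a single population. The groups here pool both sets and share libraries, so that rate does not apply to them. In 7 of the 8 flagged groups the library was of letter D, and SN_input D had the fewest genes detected in its fraction (10023). Cd33 was at 8.66 CPM in Input D (0.583 to 2.20 CPM in the other letters), at 319.96 CPM in MG_TRAP D (74.4 to 102 CPM) and at 0.190 CPM, 1 read, in SN_input D (5.40 to 15.1 CPM). Slc2a5 was at 378 CPM in MG_TRAP D (91.4 to 168 CPM). In SN_input D, Olfml3 was at 11.2 CPM (57.4 to 74.5 CPM), Selplg at 515 CPM (66.6 to 175 CPM) and Sparc at 4965 CPM (2255 to 2887 CPM). Olfml3 was at 54.5 CPM in PeMP_TRAP of letter I, against 519 to 2846 CPM in the other letters.

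For Tmem119 and Slc2a5 the enrichment of PeMP_TRAP over SN_input differed between the sets by a test of the difference itself, at -2.68 (adjusted p = 0.0372) and -4.27 (adjusted p = 0.026) on the log2 scale, second set minus first. Of all genes 14.9% were called lower in this comparison, and the median was -1.61 over all genes and -1.46 over the 9. With RLE size factors the differences were -1.81 and -3.33 and neither was called.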

How the results depend on the processing

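Across 51 tests of single genes and 816 alternatives, 728 kept the direction and the side of the threshold, 58 kept the direction and lost the call, 29 gained it and 1 reversed: Slc2a5 in SN_input against Input, at -0.90 with the first set only. The counts of the 9 genes called in 18 comparisons stayed within 1.5 times under 183 of 221 alternatives. For MG_TRAP against Input and PeMP_TRAP against SN_input in tamoxifen mice they stayed so under every alternative run. Counts of the 9 genes under an alternative are given without the share of all genes called under it. PeMP_TRAP against MG_TRAP went from 3 calls to 1 with DESeq2, 0 with the first set only and 1 with total counts, and from 2 to 0 with the first set only when scaled to the reference genes. SN_input against Input went from 7 to 1 with the first set only and 1 with limma voom, and the difference of enrichments from 7 to 0 and 2. In MG_TRAP, tamoxifen against control went from 0 to 6 with DESeq2, 8 with limma voom, 2 without a filter and 2 with RLE size factors. In PeMP_TRAP it went from 4 to 7 with DESeq2, limma voom or no filter and to 0 with only the compared groups in the fit. Leaving out 1 letter gave 3 to 6. In control mice, MG_TRAP against Input went from 0 to 5 with DESeq2, 1 without a filter and 1 without the PeMP_TRAP library of C, and SN_input against Input from 0 to 4 and 1. The gain in MG_TRAP enrichment with tamoxifen went from 0 to 2 with DESeq2 and 1 without a filter. That in PeMP_TRAP went from 0 to 2, 1 and 3 with DESeq2, limma voom and no filter, 2 with total counts, 2 without library C and 0 to 1 with 1 letter left out. The set difference of PeMP_TRAP over SN_input went from 2 to 1 with limma voom, 0 with RLE size factors and 1 with total counts, and that over MG_TRAP from 0 to 2 with limma voom. The cause was not tested for any of these, and the alternatives without a single PeMP_TRAP or Input library were chosen after seeing the data.

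Deviations of libraries of the same letter correlated at r from -0.0391 to 0.224, not over 0.1 for every letter in any comparison, so letters were not paired. Of 8 tamoxifen letters, those nearest to their own were 6 in MG_TRAP against Input, 6 in SN_input against Input, 5 in PeMP_TRAP against MG_TRAP and 2 in PeMP_TRAP against SN_input. Of 3 control letters they were 3 in PeMP_TRAP against SN_input and 2 in each of the other 3 comparisons, a hint from the data and not from the design. With the letter as a replicate block, the calls over all genes went from 1071 to 1593 in MG_TRAP against Input, 5074 to 5696 in PeMP_TRAP against SN_input and 1770 to 738 in the difference of enrichments. Of the 9 genes, 9, 9, 3, 7 and 7 were called in the 5 tamoxifen comparisons under the block. In control mice the block gave 1 in MG_TRAP against Input and 3 in SN_input against Input, for the gains in enrichment 2 in MG_TRAP and 3 in PeMP_TRAP, and 0 for the set difference of PeMP_TRAP over SN_input. Cd33 had 3 reads or fewer in 8 of 44 libraries (4 Input, 1 MG_TRAP, 1 SN_input and 2 PeMP_TRAP) and Slc2a5 in 6 (2 Input, 2 SN_input and 2 PeMP_TRAP), and the other 7 genes in 0.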
